A study of Mus musculus with 12 samples.

Results

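Voltage-gated sodium and calcium channel genes and potassium channel genes were followed in mouse embryonic stem cells during neuronal differentiation. The members were chosen by name: all probe sets of the array with 1 gene symbol that begins with Cacna, Cacnb or Cacng, with Scn followed by a number and a or b, or with Kcn, leaving out Kcnq1ot1. This gave 246 probe sets of 118 genes, out of 18193 genes represented on the array by name and 45037 probe sets other than controls. By family they were 11 sodium channel genes (8 alpha and 3 beta subunits), 24 calcium channel genes and 83 potassium channel or accessory genes. Gene expression was measured on 12 Affymetrix mouse arrays, 3 in each of 4 groups: HM1 cells at day 4, CAG150 cells at day 4, HM1 cells at day 6 and CAG150 cells at day 6 of neuronal differentiation. HM1 is an XY embryonic stem cell line from the mouse without functional Hprt. CAG150 cells carry, per the series title, an expanded CAG repeat, which as far as the study is known lies in Htt, the Huntington's disease gene. No treatment and no allele beyond these is given in the labels, and the source of all samples is named as nervous system. The groups were read from the sample titles. The descriptions of the 3 HM1 day 6 samples give day 4 instead, so results that use these arrays carry that conflict. There was 1 line of each kind, so a difference between lines cannot be told apart from a difference between these particular cell lines. Nothing says that the 3 samples of a group came from separate cultures, and p-values therefore measure the spread between these samples only.

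Voltage-gated channels open when the membrane potential changes. Sodium channel alpha subunits form the pore that carries the rising phase of the action potential, and beta subunits modify their gating and placement. Calcium channel alpha1 subunits form the calcium pore, which alpha2delta and beta subunits bring to the membrane and tune, whereas most genes named Cacng encode partners of AMPA-type glutamate receptors. Potassium channels repolarize the cell or hold its resting potential, and include voltage-gated (Kcna to Kcnd, Kcnh, Kcnq), inward rectifier (Kcnj), leak (Kcnk) and calcium- or sodium-activated (Kcnn, Kcnma, Kcnt) types. Young neurons acquire sodium, calcium and potassium currents step by step as they leave the cell cycle, and some channel genes, such as Scn3a in rodents, are known mainly from the embryonic brain.

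The start regions of 4 members are shown because these genes gave some of the largest differences described below: Cacna2d1, Cacna2d3 and Kcnd3 were higher at day 6 in at least 1 line, and Kcnk1 was lower in both. They were chosen after their values were seen, among members that have an entry in the RefSeq promoter table of the build GRCm38.p6, each 250 bases before to 50 bases after the gene's start, 5′ to 3′ on the gene's strand. Capitals mark a GC box (GGGCGG, or CCGCCC on the other strand) and an E-box (CAGCTG, the same on both strands). Matches that touch or overlap run together.
Cacna2d1, chr5:15934441-15934740, plus strand: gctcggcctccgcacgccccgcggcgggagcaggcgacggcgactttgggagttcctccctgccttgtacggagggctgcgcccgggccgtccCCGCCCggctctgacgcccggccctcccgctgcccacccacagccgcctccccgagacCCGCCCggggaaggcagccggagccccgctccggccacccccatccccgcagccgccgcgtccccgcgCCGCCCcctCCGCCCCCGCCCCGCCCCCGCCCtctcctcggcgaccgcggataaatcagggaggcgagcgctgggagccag
Cacna2d3, chr14:29721815-29722114, minus strand: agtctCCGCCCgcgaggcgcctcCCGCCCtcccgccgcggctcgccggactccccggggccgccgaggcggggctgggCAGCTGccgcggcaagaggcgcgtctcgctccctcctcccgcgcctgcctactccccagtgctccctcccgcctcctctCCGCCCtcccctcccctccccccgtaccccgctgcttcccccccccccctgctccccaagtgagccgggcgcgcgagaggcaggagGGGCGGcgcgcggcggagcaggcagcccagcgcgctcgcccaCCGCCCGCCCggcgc
Kcnd3, chr3:105451640-105451939, plus strand: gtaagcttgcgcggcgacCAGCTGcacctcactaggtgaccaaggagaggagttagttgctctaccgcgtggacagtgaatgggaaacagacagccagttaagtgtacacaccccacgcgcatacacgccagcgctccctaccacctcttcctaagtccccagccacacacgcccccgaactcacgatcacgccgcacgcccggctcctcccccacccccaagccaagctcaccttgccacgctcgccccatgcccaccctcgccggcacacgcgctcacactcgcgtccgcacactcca
Kcnk1, chr8:125994852-125995151, plus strand: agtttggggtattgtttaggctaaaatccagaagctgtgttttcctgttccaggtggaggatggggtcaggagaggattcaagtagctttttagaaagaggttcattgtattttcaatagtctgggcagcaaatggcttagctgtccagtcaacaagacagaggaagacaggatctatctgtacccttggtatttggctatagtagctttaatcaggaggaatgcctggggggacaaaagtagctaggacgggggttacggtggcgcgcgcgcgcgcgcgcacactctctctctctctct
The Cacna2d1 window had 80% G and C bases, 42 CpG and 7 GC boxes. The Cacna2d3 window had 81.3% G and C, 41 CpG, 6 GC boxes and 1 E-box. Kcnd3 had 64% G and C, 25 CpG and 1 E-box, and Kcnk1, the member that was lower at day 6, had 49% G and C, 10 CpG and neither motif. Over the 69 listed starts of 47 of the 61 tested members, the median was 61.7% G and C and 12 CpG, against 52.7% and 7 over all 32851 starts in the table. A GC box was in 47.8% of the members' windows and in 35.7% of all windows, and the E-box in 26.1% and 16.3%. The TATA box (TATAAA, either strand) was in 4.35% of the members' windows and in 13.6% of all. REST, a repressor of neuronal genes in cells that are not neurons, binds the element RE1, whose core was searched on both strands as its left part CAGCACC, 2 further bases and its right part GGACAG. None of the 69 members' windows and 0.0365% of all windows held the whole core. The left part alone was in 7.25% of the members' windows and 7.14% of all, and the right part in 26.1% and 22.2%. A match describes the letters in the window, and no match says only that these letters are not there.

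The channel genes were dim on these arrays. Signal was taken to mean a mean of log2(intensity + 16) over all 12 arrays above the 40th percentile of the whole array, which is 4.80 on that scale or an intensity of 11.9. By this rule 87 of the 246 probe sets (35.4%, against 60% of all probe sets) and 61 of the 118 genes (51.7%, against 67.5% of all named genes) had signal, each gene being represented by its brightest probe set. The 61 genes with signal were the ones tested. Their median intensity over the arrays was 26.4, compared with 173 for all 12280 genes tested. Of the 61, 40 were above the threshold in all 4 groups and 21 were below it in at least 1 group, so that those 21 passed the filter through the groups in which they were brighter. The member just inside the threshold was Scn2a, with a mean log2 of 4.81, and the one just outside was Kcna6 with 4.80. By family, 4 of 8 sodium channel alpha, 2 of 3 sodium channel beta, 18 of 24 calcium channel and 37 of 83 potassium channel genes were tested. Among calcium channel genes, 8 of 9 alpha1, 3 of 4 alpha2delta, 2 of 3 beta and 5 of 8 gamma genes had signal. Among potassium channel genes these were 9 of 22 voltage-gated Kcna, Kcnc, Kcnd, Kcnf, Kcng, Kcns and Kcnv genes, 0 of 3 Kcnq, 4 of 6 Kcnh, 5 of 15 Kcnj, 6 of 12 Kcnk, 5 of 8 Kcnn, Kcnma, Kcnt and Kcnu genes, and 8 of 17 accessory genes.

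The arrays themselves were alike. Their median intensities lay between 19.2 and 25.9, replicate arrays of a group correlated at 0.99 on the log2 scale across the genes tested, and no 2 arrays of a group held identical values. Htt had an intensity of 152 ± 12.6 in HM1 at day 4 and 105 ± 9.70 in CAG150 at day 4, and 132 ± 22.2 and 65.1 ± 6.52 at day 6 (mean ± SD of 3 arrays, as throughout). Postmitotic neuron markers were present in all groups: none of 16 had a group mean at or below the signal threshold. At day 4 their summed intensity ran from 5166 to 5348 in HM1 and from 4260 to 4724 in CAG150. At day 6 the sum ran from 16650 to 18910 in HM1 and from 23970 to 25150 in CAG150. The lower day 4 sum in CAG150 rested on Stmn2, with means of 2108 in HM1 and 607 in CAG150. In the line comparison below, 7 of the 16 markers were higher in CAG150 at day 4 and 2 were lower. The 12 fibroblast and smooth muscle markers summed to 3974 to 4603 and 5259 to 6415 in HM1 at days 4 and 6, but to 632.9 to 725.3 and 380.3 to 418 in CAG150. Of these markers, Cnn1 was below the threshold in CAG150 alone, on both days, while Myh11 and Lum were below it in every group and Postn in all but HM1 at day 6. The 12 cardiac and skeletal muscle markers summed to 443.3 to 537.2 over the HM1 arrays and 90.31 to 153 over the CAG150 arrays, and Myh6, Tnnt2, Nkx2-5, Ryr2 and Ttn were below the threshold in every group. The 12 endoderm markers summed to 2336 to 3294 in HM1 and 1067 to 1278 in CAG150, and the 10 pluripotency markers to 4143 to 5357 in HM1 and 2646 to 3835 in CAG150. Most of the pluripotency sum was Sox2, which is also on the list of neural progenitor markers. Its means were 2521 in HM1 and 2163 in CAG150 at day 4, and 2972 and 2803 at day 6. The 9 glial markers summed to 209.5 to 264.7 in HM1 and 244.4 to 325.4 in CAG150. Of these, Mbp and Pdgfra were above the threshold in every group, Sox10 in all but HM1 at day 4, and Olig2 in CAG150 on both days. Gfap was above it only in CAG150 at day 4, Olig1 only in CAG150 at day 6 and Aqp4 only in HM1 at day 6. S100b and Mog were above it in no group. Since these were bulk samples, fewer cells of a type and less RNA per cell cannot be told apart.

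From day 4 to day 6, 26 of the 61 channel genes changed in HM1 cells, 15 upward and 11 downward, and 32 changed in CAG150 cells, 24 upward and 8 downward. Changed, rose and fell are used for genes that passed limma's moderated test at a Benjamini-Hochberg adjusted p under 0.05 over all 12280 genes. In HM1 this was 42.6% of the members, against 38.9% of all genes (20.4% upward and 18.5% downward), so the share was near the background. In CAG150 it was 52.5% of the members against 44.4% of all genes (22.5% upward and 21.9% downward). The median difference of the members was 0.15 in HM1 and 0.24 in CAG150 on the scale of log2(intensity + 16), where the medians of all genes were -0.004 and 0. A change of at least 2-fold on this scale was seen upward in 4 and downward in 1 member in HM1, and in 11 and 2 members in CAG150. The share of all genes past this 2-fold limit was not counted, so these numbers cannot be set against a background. The 3 arrays of one day did not overlap those of the other for 33 members in HM1 (49.1% of all genes) and 34 in CAG150 (55% of all genes). The balance of rises and falls depended on the scaling. Quantile normalization lowered the median difference of all genes by 0.04 in both lines. With it 12 members rose and 13 fell in HM1, and 18 rose and 11 fell in CAG150, of 60 tested. With each array centred on its median, which lowered the median difference of all genes by 0.10 in both lines, these were 13 and 11 in HM1 and 21 and 11 in CAG150. Among the 40 members above the threshold in all groups, 10 rose and 8 fell in HM1, and 18 rose and 6 fell in CAG150. The shares of all genes under these scalings, and among genes above the threshold in all groups, are not given here. These counts are therefore not set against a background, and the changed balance is not shown to be particular to channel genes. Over the same days, 15 of 16 postmitotic neuron markers rose in each line, as did 9 of 12 neural progenitor markers in HM1 and 10 in CAG150. Of the progenitor markers, 2 fell in HM1 and 1 in CAG150. Of 10 pluripotency markers, with Sox2 on both this and the progenitor list, 4 rose in HM1 and 5 in CAG150, with 1 falling in each. Of 8 tested endoderm markers 6 rose in HM1, and 3 rose and 1 fell in CAG150. Of 8 tested fibroblast and smooth muscle markers 4 rose and 3 fell in HM1, and 5 fell in CAG150. Of 4 tested cardiac and skeletal muscle markers 2 rose and 1 fell in HM1, and of 4 glial markers 2 rose there. Their part in these results was not tested.

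**Figure D1:**
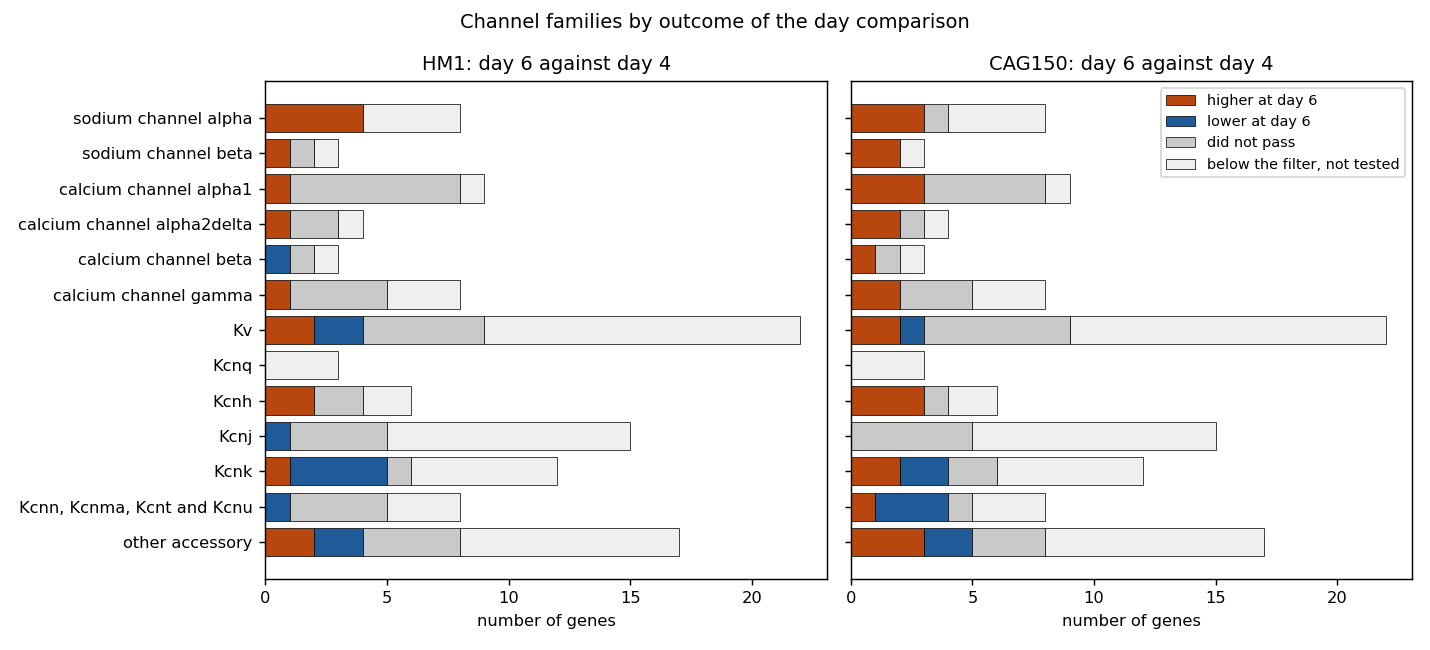
Number of channel genes of each family (x axis) that were higher at day 6, lower at day 6, tested without passing, or not tested for lack of signal, in HM1 cells (left) and CAG150 cells (right). All 4 tested sodium channel alpha genes were higher at day 6 in HM1 and 3 of 4 in CAG150, none of the 3 Kcnq genes was tested, and in the Kcnk family 4 genes were lower in HM1 and 2 in CAG150. Of the sodium channel alpha genes, Scn2a and Scn9a passed the filter for signal through their day 6 arrays.

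The lists of the lines shared 13 rising genes, which is 86.7% of the 15 in HM1 and 54.2% of the 24 in CAG150. They were Scn2a, Scn3a, Scn8a, Scn3b, Cacna1h, Cacna2d3, Cacng4, Kcnc1, Kcnd3, Kcnh1, Kcnh2, Kcnk10 and Kcnmb4os2. Scn2a and Kcnk10 were above the signal threshold only at day 6, and Scn3a was below it in HM1 at day 4, so the filter favoured a rise of these genes. The group means of the lines come from different arrays, but the spread of each gene was estimated over all arrays. The lists are therefore not independent. The 6 genes that fell in both, 54.5% of the 11 in HM1 and 75% of the 8 in CAG150, were Kcng1, Kcnip2, Kcnip3, Kcnk1, Kcnk5 and Kcnt2. No member rose in one line and fell in the other. The overlap of the lines was not counted over all genes, so this sharing is not shown to be particular to channel genes. Genes that passed in one line alone are not thereby shown to differ between lines. That difference was tested directly, as the day difference in CAG150 minus the day difference in HM1, and 4 of 61 members passed (6.56%, against 3.61% of all genes, 1.58% larger and 2.03% smaller in CAG150): the difference was larger in CAG150 for Cacna2d1 and Scn3b, and smaller for Cacna2d3 and for Kcnip1, which rose in HM1 alone. The count was 2 when HM1 day 4 replicate 1, CAG150 day 4 replicate 1 or 2, HM1 day 6 replicate 1, or CAG150 day 6 replicate 1 or 3 was left out, Cacna2d1 and Scn3b passing each time, and 3 (2 larger and 1 smaller) with median centring.

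**Figure D2:**
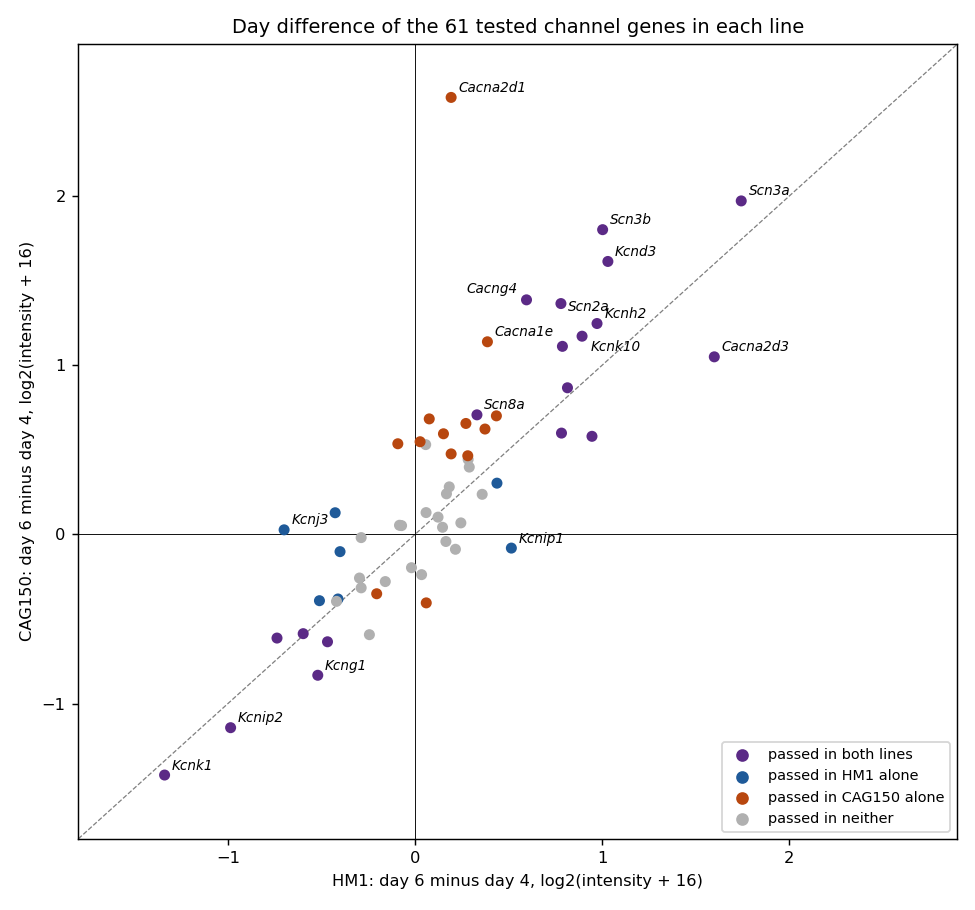
Difference between day 6 and day 4 of the 61 tested channel genes, on the scale of log2(intensity + 16), in HM1 cells (x axis) against CAG150 cells (y axis), with the dashed line marking equal differences and colours showing in which line a gene passed. Genes that passed in both lines lie in the upper right or lower left, and Cacna2d1, at 0.19 in HM1 and 2.58 in CAG150, lies farthest from the line.

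Between the lines fewer members differed. At day 4, 9 of 61 passed, 3 higher and 6 lower in CAG150 (14.8%, against 15.8% of all genes, 7.87% higher and 7.92% lower), and at day 6, 12 passed, 11 higher and 1 lower (19.7%, against 21.4% of all genes, 10.1% higher and 11.2% lower). Both shares were near the background. The line comparison and the day comparisons share arrays and are given side by side, not as independent results. The 3 arrays of a line did not overlap those of the other for 13 members at day 4 (34.4% of all genes) and 18 at day 6 (38.6% of all genes). The median difference of the members was 0.04 at day 4 and 0.15 at day 6. On chromosome 8 the median difference of all tested genes was 0.20 at day 4 and 0.24 at day 6, and on chromosome 11 it was 0.17 and 0.23, compared with -0.02 and -0.03 elsewhere. Of the 61 members, 9 lie on these 2 chromosomes (Cacna1a, Kcnk1 and Kcnn1 on 8; Cacna1g, Cacnb1, Cacng4, Cacng5, Kcnip1 and Kcnj12 on 11). Among the other 52, 1 was higher and 6 were lower in CAG150 at day 4, and 8 were higher and 1 was lower at day 6. The neuron markers moved in the same comparisons, with 7 of 16 higher and 2 lower in CAG150 at day 4 and 13 higher and none lower at day 6, as did the markers of other cells: 5 of 8 tested fibroblast and smooth muscle markers, 4 of 4 cardiac and skeletal muscle markers and 5 of 8 endoderm markers were lower in CAG150 at day 4, and 5, 3 and 6 at day 6. Of 10 pluripotency markers 6 were lower in CAG150 on each day, with medians over the list of -0.96 and -0.71. Their part in the line differences was not tested.

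**Figure D3:**
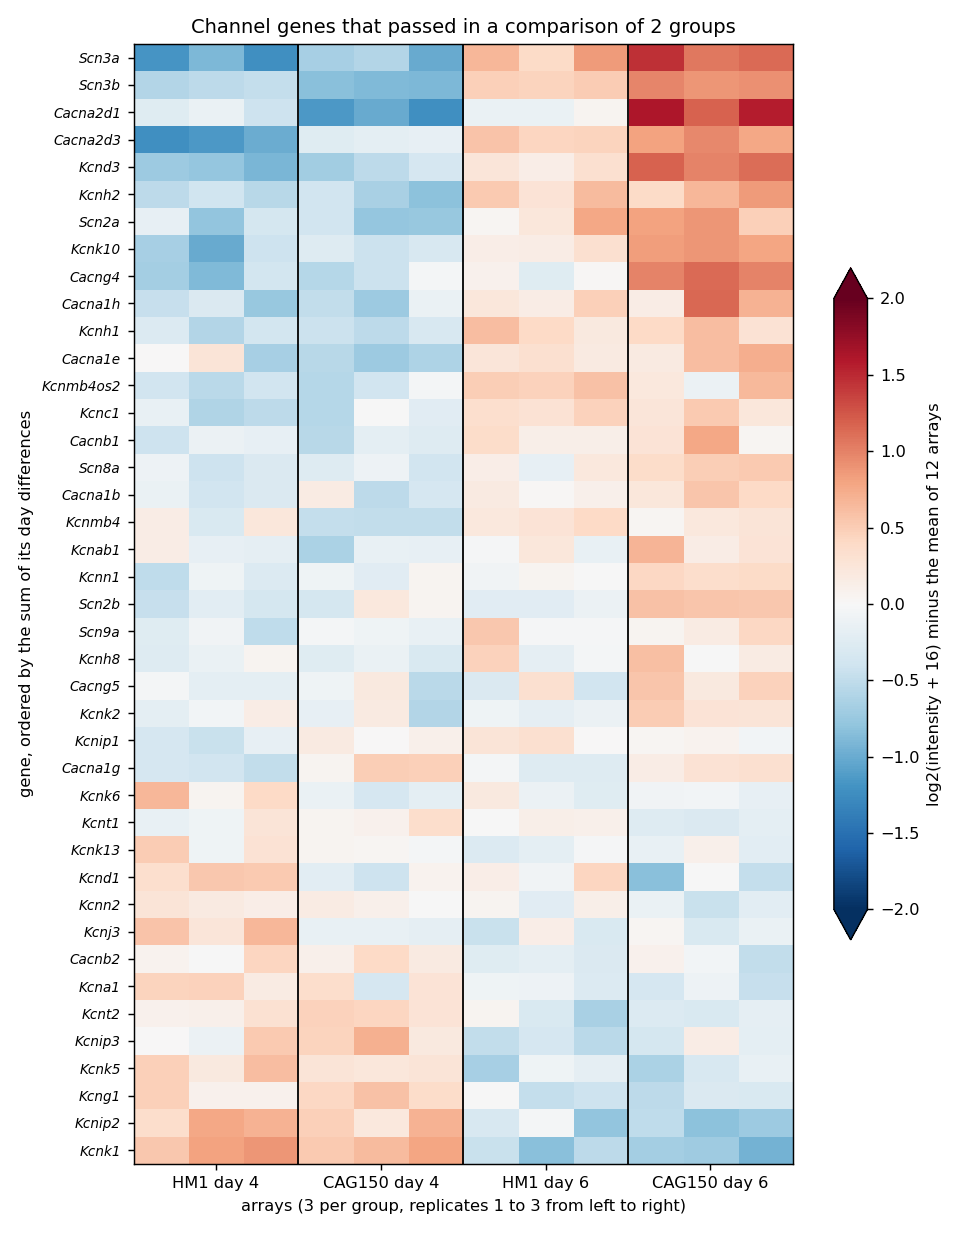
The 41 channel genes that passed in at least 1 of the 4 comparisons of 2 groups (rows, ordered by the sum of their day differences) on the 12 arrays (columns, 3 per group). Colour gives log2(intensity + 16) minus the gene's mean over the 12 arrays, from blue (lower) to red (higher), and the top rows, led by Scn3a, Scn3b, Cacna2d1 and Cacna2d3, are blue at day 4 and red at day 6 in CAG150.

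All 4 sodium channel pore genes with signal rose in HM1 and 3 in CAG150, where 20.4% and 22.5% of all genes rose. Scn2a and Scn9a were above the signal threshold in 2 groups, those of day 6, and Scn3a in 3 groups. These genes passed the filter through their brighter groups, so the count is partly set by the filter. The intensities of Scn3a, an embryonic brain form, were 9.80, 15.3 and 8.92 in HM1 and 20.7, 23.0 and 13.1 in CAG150 at day 4, and 77.1, 60.6 and 90.0 in HM1 and 146, 105 and 113 in CAG150 at day 6. Every day 6 array was above every day 4 array. Scn3a rose 3.35-fold in HM1 (log2 difference 1.74 ± 0.16 SE, adjusted p = 3.1e-06) and 3.92-fold in CAG150 (1.97 ± 0.16, adjusted p = 7.8e-07). The HM1 day 4 mean of 11.3 was below the signal threshold, and the fold depends on the constant added before the logarithm: with 1 in place of 16 the log2 difference in HM1 was 2.66 and in CAG150 2.64, and with 64 it was 0.89 and 1.15. At day 6 it was also higher in CAG150 by 0.58 ± 0.16 (adjusted p = 0.019), without overlap of the 3 and 3 arrays. That call was lost when HM1 day 6 replicate 2 or CAG150 day 6 replicate 1 was left out (0.45, adjusted p up to 0.08), with a constant of 1 (adjusted p = 0.089) and with the mean of its 2 probe sets (adjusted p = 0.13).

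Scn2a, the pore gene of early axons, was near the limit of signal at day 4, with 9.05, 0.33 and 6.05 in HM1 and 5.49, 0.48 and 0.562 in CAG150. At day 6 it read 12.8, 16.9 and 32.2 in HM1 and 33.3, 35.9 and 23.2 in CAG150. The days did not overlap in either line, while the lines overlapped at each day. It rose in HM1 (0.78 ± 0.20, adjusted p = 0.0089) and in CAG150 (1.36 ± 0.20, adjusted p = 0.00015), and its group means at day 4 were below the threshold, so the size of these folds rests on the added constant. Scn8a, whose protein carries much of the current at mature nodes and initial segments, had group means of 55.1 ± 7.72 in HM1 and 56.2 ± 7.45 in CAG150 at day 4 and of 73.7 ± 11.7 and 102 ± 6.57 at day 6. It rose by 0.71 ± 0.12 in CAG150 (adjusted p = 0.00039). Another of its probe sets rose there too (1.15, adjusted p = 4.9e-05) and was lower in CAG150 at day 4 (-0.54, adjusted p = 0.027), and the remaining 2 with signal gave day differences of 0.34 and 0.27 that did not pass. In HM1 Scn8a passed at 0.33 ± 0.12 (adjusted p = 0.043) with arrays of the 2 days overlapping, its other probe sets gave 0.44 (adjusted p = 0.031), -0.10 and -0.11, and the call was lost with either other scaling and without any 1 of 7 arrays, namely HM1 day 4 replicate 2 or 3, CAG150 day 4 replicate 1, HM1 day 6 replicate 1 or 3, and CAG150 day 6 replicate 2 or 3 (0.26 to 0.33). Scn8a was also higher in CAG150 at day 6 by 0.40 (adjusted p = 0.032), a call lost without HM1 day 6 replicate 1 or 2 or CAG150 day 6 replicate 2 or 3 (0.29 to 0.43) and with median centring. It was also lost without a filter, with the mean of the gene's probe sets and with a block for the replicate number. The other Scn8a probe sets with signal gave 0.58, 0.24 and 0.17 in that comparison and did not pass (adjusted p = 0.18, 0.52 and 0.46). Scn9a, known from sensory neurons, had means of 8.46 ± 3.65 and 11.6 ± 0.934 at day 4 and 17.5 ± 7.95 and 18.2 ± 4.40 at day 6 in HM1 and CAG150. It passed in HM1 alone (0.44 ± 0.16, adjusted p = 0.043), with one HM1 day 6 array at 26.6 and the others at 12.9. This call was lost with either other scaling and without any 1 of 7 arrays: HM1 day 4 replicate 1 or 3, any CAG150 day 4 array, HM1 day 6 replicate 1 or CAG150 day 6 replicate 2 (0.25 to 0.45). Scn1a, Scn7a, Scn10a and Scn11a had no signal, with means over the arrays of 9.64, 7.56, 2.96 and 5.33.

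The 2 sodium channel beta genes with signal both rose in CAG150. Scn3b, whose subunit modifies the gating of the pore, read 43.9, 46.7 and 48.5 in HM1 and 34.4, 32.6 and 32.3 in CAG150 at day 4, and 109, 106 and 111 in HM1 and 161, 150 and 154 in CAG150 at day 6. No 2 groups overlapped: CAG150 was below HM1 at day 4 and above it at day 6. Scn3b rose by 1.00 ± 0.07 in HM1 (2.0-fold, adjusted p = 4.8e-07) and by 1.80 ± 0.07 in CAG150 (3.49-fold, adjusted p = 2.6e-09). The difference between these rises was 0.80 ± 0.10 (adjusted p = 0.001). It passed lower in CAG150 at day 4 (-0.34, adjusted p = 0.0067) and higher at day 6 (0.46, adjusted p = 0.00077). The day 4 call was lost with a constant of 64 (adjusted p = 0.058) and with the mean of its probe sets (adjusted p = 0.11). Its other probe set rose by 0.42 in HM1 (adjusted p = 0.034) and by 0.87 in CAG150 (adjusted p = 0.00034), and gave -0.09 and 0.36 between the lines and 0.45 for the difference of the rises, none of which passed. Scn2b, a beta subunit linked to channels by a disulfide bond, read 33.5, 42.9 and 37.8 in HM1 and 37.3, 63.1 and 54.9 in CAG150 at day 4, then 42.4, 42.2 and 47.2 in HM1 and 86.8, 84.4 and 83.7 in CAG150. The 3 CAG150 day 6 arrays stood above all others. Scn2b rose in CAG150 by 0.59 ± 0.13 (adjusted p = 0.002) and was higher there than in HM1 at day 6 by 0.75 ± 0.13 (1.69-fold, adjusted p = 0.0011). With the mean of its 3 probe sets the line difference was 0.28 and did not pass (adjusted p = 0.17). Its difference in HM1 was 0.15 (adjusted p = 0.37), and the difference between the lines' day differences, 0.44, did not pass (adjusted p = 0.23). Scn4b had no signal (7.58).

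**Figure D4:**
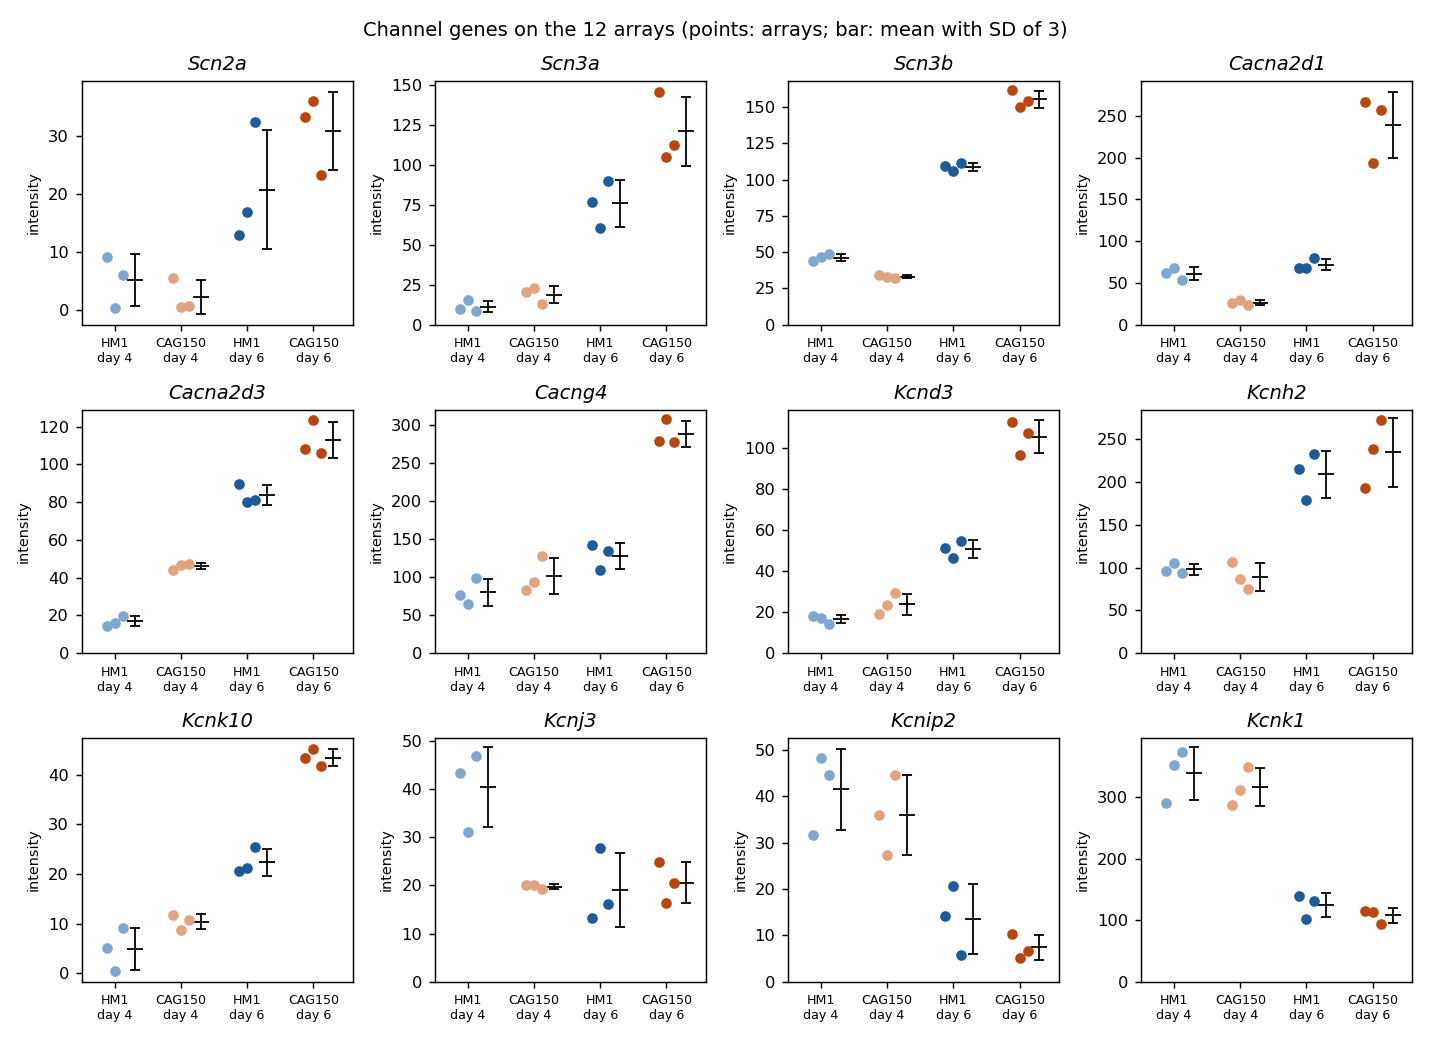
Intensity (y axis, linear) of 12 channel genes on each array (points) in the 4 groups, with the mean and SD of 3 arrays as bars. Scn3b and Cacna2d1 are lower in CAG150 than in HM1 at day 4 and higher at day 6, and Kcnk1 and Kcnip2 are lower at day 6 in both lines.

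Cacna2d1, which encodes an alpha2delta subunit known as the target of gabapentin, gave the largest difference of all members. Its brightest probe set read 61.8, 68.4 and 53.1 in HM1 and 25.7, 29.6 and 23.5 in CAG150 at day 4, and 67.7, 68.3 and 80.0 in HM1 and 267, 194 and 257 in CAG150 at day 6. The HM1 arrays of both days overlapped, CAG150 was below them at day 4, and the CAG150 day 6 arrays were above all others. It rose 6.0-fold in CAG150 (2.58 ± 0.12, adjusted p = 9.8e-09), while in HM1 the difference was 0.19 (adjusted p = 0.24). The difference between the day differences was 2.39 ± 0.17 (adjusted p = 1.7e-05). Between the lines it was lower in CAG150 at day 4 (-0.86 ± 0.12, 1.82-fold, adjusted p = 0.00047) and higher at day 6 (1.53 ± 0.12, 2.88-fold, adjusted p = 3e-06). The other 2 probe sets with signal rose less in CAG150, by 1.02 and 1.22 (adjusted p = 0.00018 and 0.0002), and were higher in CAG150 at day 6 by 0.72 and 0.97 (adjusted p = 0.006 and 0.0032). At day 4 they gave -0.21 and -0.08 and did not pass (adjusted p = 0.39 and 0.83). With the mean of its 5 probe sets the day 4 difference was -0.22 (adjusted p = 0.12), the day 6 difference 0.82, the rise in CAG150 1.15 and the difference of the day differences 1.04 (adjusted p = 0.00043).

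Cacna2d3, another alpha2delta gene, read 14.6, 16.2 and 19.9 in HM1 and 44.2, 46.5 and 47.5 in CAG150 at day 4, and 89.7, 80.3 and 81.0 in HM1 and 108, 124 and 106 in CAG150 at day 6. No 2 groups overlapped, and CAG150 was higher on both days. It rose 3.03-fold in HM1 (1.60 ± 0.09, adjusted p = 4.5e-08) and 2.07-fold in CAG150 (1.05 ± 0.09, adjusted p = 1.3e-06). It was higher in CAG150 by 0.92 ± 0.09 at day 4 (1.89-fold, adjusted p = 2e-05) and by 0.37 ± 0.09 at day 6 (adjusted p = 0.011). The difference of the rises was -0.55 ± 0.12 (adjusted p = 0.031) and was lost without any 1 of 9 arrays, namely HM1 day 4 replicate 1 or 2, any CAG150 day 4 array, and replicate 1 or 3 of either line at day 6 (-0.50 to -0.57, adjusted p from 0.053 to 0.084). With a constant of 64 it was -0.19 (adjusted p = 0.35), and with median centring -0.55 (adjusted p = 0.052). This call was also lost without a filter, with limma's trend and robust settings and with a block for the replicate number. Cacna2d2 had means of 46.4 ± 11.8, 66.8 ± 20.4, 53.5 ± 7.42 and 80.3 ± 14.3 in HM1 and CAG150 at day 4 and HM1 and CAG150 at day 6, and passed in no comparison. Cacna2d4 had no signal (7.02).

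Of the calcium channel pore genes, Cacna1h rose in both lines and Cacna1b and Cacna1e in CAG150. Cacna1h, a low-voltage-activated T-type channel, read 15.3, 19.2 and 9.29 in HM1 and 14.5, 10.1 and 23.2 in CAG150 at day 4, and 34.4, 31.7 and 43.8 in HM1 and 31.6, 79.5 and 53.2 in CAG150 at day 6. The days did not overlap in either line, and the lines overlapped at both. It rose by 0.79 ± 0.22 in HM1 (adjusted p = 0.014) and 1.11 ± 0.22 in CAG150 (adjusted p = 0.0014). The HM1 call was lost without HM1 day 4 replicate 3 or HM1 day 6 replicate 3 (0.66 and 0.69, adjusted p up to 0.06). Cacna1e, the R-type channel, read 3.27, 1.19 and 2.56 in CAG150 at day 4 and 16, 27.5 and 31.1 at day 6, and 12.6, 17.8 and 1.85 and then 17.7, 19.5 and 16.2 in HM1. The CAG150 arrays of the 2 days did not overlap, while those of HM1 did. It rose in CAG150 by 1.14 ± 0.20 (adjusted p = 0.00051), from a group mean below the signal threshold, and in HM1 the difference was 0.39 (adjusted p = 0.14). Cacna1b, the N-type channel of nerve terminals, rose in CAG150 from 37.4 ± 13.8 to 64.9 ± 9.45 (0.62 ± 0.15, adjusted p = 0.0056), and its 2 other probe sets with signal rose there too (0.76 and 0.91). Its means in HM1 were 35.1 ± 4.68 and 50.1 ± 3.58 (0.37, adjusted p = 0.073), where 1 of the other probe sets passed (0.53, adjusted p = 0.02). Cacna1g, another T-type channel and on chromosome 11, was the calcium pore gene that differed between lines. It read 63.0, 60.1 and 54.3 in HM1 and 86.9, 124 and 122 in CAG150 at day 4, and 80.3, 66.7 and 67.2 and 94.2, 106 and 108 at day 6. CAG150 was above HM1 on all arrays of each day. It was higher in CAG150 by 0.74 ± 0.12 at day 4 (1.68-fold, adjusted p = 0.0012) and by 0.44 ± 0.12 at day 6 (adjusted p = 0.021), the latter lost without replicate 2 or 3 of either line at day 6 (0.40 to 0.42) and with median centring. Cacna1a, Cacna1c, Cacna1d and Cacna1f, the P/Q-type and the L-type channels with signal, passed in no comparison, with group means from 11.5 to 33.1. Cacna1s, the skeletal muscle L-type channel, had no signal (3.33).

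Of the calcium channel beta genes, Cacnb1 (chromosome 11) rose in CAG150 from 30.5 ± 5.77 to 60.9 ± 20.5 (0.70 ± 0.17, adjusted p = 0.0043), and its means in HM1 were 33.9 ± 5.26 and 51.4 ± 7.02 (0.43, adjusted p = 0.056). The other probe set of Cacnb1 rose in both lines, by 0.59 in HM1 (adjusted p = 0.0064) and 0.58 in CAG150 (adjusted p = 0.0057). Cacnb2 fell in HM1 from 31.3 ± 7.92 to 19.3 ± 1.17 (-0.41, adjusted p = 0.046). This call was lost with a constant of 1 or 64 and without any 1 of 8 arrays: HM1 or CAG150 day 4 replicate 1 or 3, any HM1 day 6 array or CAG150 day 6 replicate 2 (-0.28 to -0.46). Cacnb4 had no signal. Among gamma genes Cacng4 (chromosome 11), an AMPA receptor partner, read 76.4, 64.2 and 99.3 in HM1 and 83.3, 93.5 and 128 in CAG150 at day 4, and 142, 109 and 134 in HM1 and 279, 308 and 278 in CAG150 at day 6. The lines overlapped at day 4, and at day 6 the CAG150 arrays were above all others. It rose by 0.60 ± 0.16 in HM1 (adjusted p = 0.0091) and by 1.39 ± 0.16 in CAG150 (2.62-fold, adjusted p = 1.5e-05). At day 6 it was 2.12-fold higher in CAG150 (1.08 ± 0.16, adjusted p = 0.00035), and the other probe set gave 0.79 there (adjusted p = 0.0058). That probe set also rose in CAG150 (0.91, adjusted p = 0.0008), and in HM1 it gave 0.26 (adjusted p = 0.26). The difference of the rises, 0.79 ± 0.22, did not pass (adjusted p = 0.072). Cacng5 passed only in CAG150 between days (0.55, adjusted p = 0.04), with overlapping arrays and from a group mean near the threshold. That call was lost without HM1 day 4 replicate 2, CAG150 day 4 replicate 1 or 3 or CAG150 day 6 replicate 1 or 3 (0.35 to 0.57) and under either other scaling. Cacng2, Cacng7 and Cacng8 passed in no comparison, and Cacng1, Cacng3 and Cacng6 had no signal.

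Among voltage-gated potassium channels, Kcnd3, which carries A-type current, rose in both lines. It read 18.2, 17.3 and 14.2 in HM1 and 18.9, 23.3 and 29.1 in CAG150 at day 4, and 51.2, 46.1 and 54.5 in HM1 and 112, 96.4 and 107 in CAG150 at day 6. The 4 groups did not overlap. The rise was 2.04-fold in HM1 (1.03 ± 0.10, adjusted p = 9.2e-06) and 3.06-fold in CAG150 (1.61 ± 0.10, adjusted p = 1.4e-07). It was higher in CAG150 at day 6 by 0.86 ± 0.10 (1.82-fold, adjusted p = 9e-05), and 0.28 at day 4 (adjusted p = 0.091). The difference of the rises, 0.58 ± 0.15, did not pass (adjusted p = 0.051). Kcnd1, also of A-type current and on the X chromosome, read 33.4, 41.0 and 40.2 in HM1 and 17.8, 13.6 and 25.4 in CAG150 at day 4, and 26.9, 21.5 and 36.9 and 5.92, 23.0 and 12.4 at day 6. It was lower in CAG150 at day 4 (-0.65 ± 0.19, adjusted p = 0.039), without overlap, and at day 6 (-0.60 ± 0.19, adjusted p = 0.042), with overlap. Its other probe set gave -0.38 and 0.01. The day 4 call was lost without any HM1 day 4 array, CAG150 day 4 replicate 1 or 2, HM1 day 6 replicate 1 or CAG150 day 6 replicate 3 (-0.53 to -0.71). The day 6 call was lost without any HM1 day 4 array, CAG150 day 4 replicate 1, or replicate 1 or 3 of either line at day 6 (-0.41 to -0.62). Both calls were also lost without a filter, with a constant of 1 and with the mean of the gene's probe sets. A block for the replicate number ended the day 6 call as well.

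Kcnc1, a fast-deactivating channel of rapidly firing neurons, read 19.5, 9.84 and 11.4 in HM1 and 10.6, 23.2 and 17.5 in CAG150 at day 4, and 33.7, 31.8 and 37.9 and 30.6, 40.7 and 29.9 at day 6. The days did not overlap in either line. It rose by 0.78 ± 0.15 in HM1 (adjusted p = 0.0014) and 0.60 ± 0.15 in CAG150 (adjusted p = 0.0065). Its 2 other probe sets with signal gave 0.13 and -0.21 in HM1 and 0.37 and 0.22 in CAG150 and did not pass. Kcng1, a subunit that is silent alone and modifies other voltage-gated channels, fell from 36.0 ± 8.63 to 20.3 ± 6.59 in HM1 (-0.52 ± 0.14, adjusted p = 0.012) and from 45.1 ± 5.04 to 18.3 ± 3.04 in CAG150 (-0.83 ± 0.14, adjusted p = 0.00043). The HM1 call was lost without HM1 day 4 replicate 1 (-0.39, adjusted p = 0.051). Kcna1, an axonal delayed rectifier, fell in HM1 from 34.3 ± 5.77 to 19.2 ± 2.62 (-0.51, adjusted p = 0.028), lost without HM1 day 4 replicate 1 or 2 or HM1 day 6 replicate 3 (-0.45 to -0.47) and with the mean of its probe sets (-0.17, adjusted p = 0.2). A further Kcna1 probe set with signal fell in HM1 as well (-0.49, adjusted p = 0.0054), and was lower in CAG150 than in HM1 at day 4 (-0.65, adjusted p = 0.0026) and at day 6 (-0.39, adjusted p = 0.031). Kcna2, Kcna3, Kcna5 and Kcna7 passed in no comparison. Of the 4 Kcnh genes with signal, 2 rose in HM1 and 3 in CAG150. Kcnh2, the ERG channel, read 95.4, 105 and 93.4 in HM1 and 107, 86.3 and 74.8 in CAG150 at day 4, and 215, 179 and 232 and 192, 238 and 272 at day 6. Days were apart and lines overlapped, with rises of 1.96-fold in HM1 (0.97 ± 0.14, adjusted p = 0.00016) and 2.37-fold in CAG150 (1.25 ± 0.14, adjusted p = 1.6e-05). Kcnh1, the EAG channel, rose from 13.3 ± 3.09 to 35.8 ± 7.59 in HM1 (0.81 ± 0.13, adjusted p = 0.00028) and from 12.9 ± 2.10 to 36.9 ± 6.33 in CAG150 (0.87 ± 0.13, adjusted p = 0.00013), again with overlap between the lines on each day. Kcnh8 passed only in CAG150 (0.48 ± 0.17, adjusted p = 0.042), a call lost without HM1 day 4 replicate 2, any CAG150 day 4 array or CAG150 day 6 replicate 1 or 3 (0.30 to 0.52) and under either other scaling. Kcnh3 passed in no comparison at its brightest probe set, but another of its probe sets fell in HM1 (-0.55, adjusted p = 0.0087) and was higher in CAG150 at day 6 (0.54, adjusted p = 0.018). Kcnh5 and Kcnh7 had no signal.

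Of the 5 inward rectifier genes with signal, Kcnj3 passed and Kcnj4, Kcnj6, Kcnj11 and Kcnj12 did not. Kcnj11, the pore of ATP-sensitive channels, had means of 111 ± 9.61, 115 ± 3.32, 106 ± 23.5 and 121 ± 16.9 in HM1 and CAG150 at day 4 and HM1 and CAG150 at day 6, with log2 differences between -0.07 and 0.18 that did not pass. Kcnj3, which forms channels opened by G proteins, read 43.4, 31.1 and 46.9 in HM1 and 20.0, 20.0 and 19.3 in CAG150 at day 4, and 13.2, 27.6 and 16.2 and 24.9, 16.4 and 20.5 at day 6. HM1 at day 4 stood above all other arrays. Kcnj3 fell in HM1 by 0.70 ± 0.15 on the log2 scale (adjusted p = 0.0028) and was lower in CAG150 at day 4 by 1.57-fold (-0.65 ± 0.15, adjusted p = 0.011). Its other probe set with signal gave -0.69 in both comparisons and passed (adjusted p = 0.0009 and 0.0028). The difference of the day differences, 0.73 ± 0.21, did not pass (adjusted p = 0.088), and it passed for the other probe set (0.81, adjusted p = 0.03). Kcnj4 gave -0.70 between the lines at day 6 (adjusted p = 0.067) and -0.59 between days in CAG150 (adjusted p = 0.071).

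The leak channel genes went both ways. Kcnk1, the founding member of the 2-pore-domain family and on chromosome 8, read 290, 353 and 373 in HM1 and 288, 312 and 349 in CAG150 at day 4, and 140, 103 and 131 and 116, 114 and 94.5 at day 6. All day 6 arrays were below all day 4 arrays, and the lines overlapped on both days. It fell by 1.34 ± 0.13 in HM1 (2.53-fold, adjusted p = 5.6e-06) and by 1.42 ± 0.13 in CAG150 (2.68-fold, adjusted p = 2.4e-06), and its other probe set fell by 1.08 and 1.48. Kcnk10, of the stretch- and lipid-sensitive group, read 5.12, 0.526 and 9.08 in HM1 and 11.7, 8.71 and 10.7 in CAG150 at day 4, and 20.5, 21.1 and 25.4 and 43.3, 45.1 and 41.7 at day 6. The days did not overlap, and at day 6 CAG150 was above HM1 on all arrays. It rose by 0.89 ± 0.13 in HM1 (1.86-fold, adjusted p = 0.00014) and 1.17 ± 0.13 in CAG150 (2.25-fold, adjusted p = 1.2e-05) from group means below the signal threshold, and was 1.55-fold higher in CAG150 at day 6 (0.63 ± 0.13, adjusted p = 0.0037). The line call was lost with a constant of 1. Its other probe set rose by 0.90 and 1.75 and was higher in CAG150 at day 6 by 0.92. Kcnk5, an alkaline-activated leak channel, fell from 61.5 ± 10.9 to 30.8 ± 9.52 in HM1 (-0.74 ± 0.16, adjusted p = 0.0033) and from 52.0 ± 1.02 to 28.9 ± 7.55 in CAG150 (-0.61 ± 0.16, adjusted p = 0.0082), but its other probe set gave 0.14 in HM1 and -0.23 in CAG150 and did not pass. Kcnk2, related to Kcnk10, rose in CAG150 alone (0.54, adjusted p = 0.017), which was lost without CAG150 day 4 replicate 3 or CAG150 day 6 replicate 1 (0.34 and 0.46) and with quantile normalization. Kcnk6 read 31.5, 15.3 and 23.6 in HM1 and 11.5, 7.73 and 10.4 in CAG150 at day 4, and 18.5, 11.7 and 9.32 and 12.8, 13.1 and 10.8 at day 6. HM1 at day 4 was above CAG150 on all arrays. It was lower in CAG150 at day 4 (-0.59 ± 0.15, adjusted p = 0.017), lost without HM1 day 4 replicate 1 or CAG150 day 4 replicate 2 (-0.45 and -0.53), and fell in HM1 (-0.43, adjusted p = 0.036), lost without HM1 day 4 replicate 1 or 3 or HM1 day 6 replicate 2 or 3 (-0.28 to -0.41). Kcnk13 fell in HM1 (-0.40, adjusted p = 0.036) with overlapping arrays, lost without HM1 day 6 replicate 1 or 2 (-0.35 and -0.39).

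Of the 5 calcium- and sodium-activated potassium channel genes with signal, 1 fell in HM1, and 1 rose and 3 fell in CAG150. Kcnn1, a small-conductance channel on chromosome 8, rose in CAG150 from 33.4 ± 4.58 to 52.0 ± 1.46 (0.47 ± 0.11, adjusted p = 0.0038), a call lost with quantile normalization. In HM1 it gave 0.28 (adjusted p = 0.056), and its other probe set rose in both lines (0.62 in HM1, adjusted p = 0.0074, and 0.68 in CAG150, adjusted p = 0.0034). At day 6 it was higher there than in HM1 (0.39, adjusted p = 0.023), lost without replicate 1 or 3 of either line at day 6 (0.36 to 0.39) and under either other scaling. Kcnn2 fell in CAG150 from 28.8 ± 2.73 to 19.2 ± 3.76 (-0.35, adjusted p = 0.02), lost without CAG150 day 4 replicate 1 or 2 or CAG150 day 6 replicate 2 (-0.26 to -0.34). Kcnt2, a sodium-activated channel, fell from 36.0 ± 4.62 to 22.3 ± 9.38 in HM1 (-0.47 ± 0.14, adjusted p = 0.022) and from 44.4 ± 4.23 to 22.9 ± 1.63 in CAG150 (-0.64 ± 0.14, adjusted p = 0.0034). The HM1 call was lost without HM1 day 4 replicate 3 or HM1 day 6 replicate 2 or 3 (-0.29 to -0.47). Kcnt1, its relative, fell in CAG150 alone (-0.41, adjusted p = 0.012), lost without CAG150 day 4 replicate 3 (-0.31, adjusted p = 0.056). Kcnma1, the large-conductance channel, had group means of 11.1 to 16.9 and passed in no comparison at its brightest probe set. The other Kcnma1 probe set with signal fell in HM1 (-0.62, adjusted p = 0.00062) and was lower in CAG150 at day 4 (-0.48, adjusted p = 0.011).

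Of the accessory genes, the Kcnip genes bind Kcnd channels and set their A-type current. Kcnip2 read 31.6, 48.3 and 44.6 in HM1 and 36.0, 27.4 and 44.6 in CAG150 at day 4, and 14.1, 20.6 and 5.68 and 10.4, 5.19 and 6.73 at day 6. All day 6 arrays were below all day 4 arrays. It fell by 0.99 ± 0.19 in HM1 (1.98-fold, adjusted p = 0.0012) and by 1.14 ± 0.19 in CAG150 (2.21-fold, adjusted p = 0.00031). Its CAG150 day 6 mean of 7.43 was below the signal threshold, and with a constant of 1 the CAG150 difference was -2.15. Kcnip3 fell by 0.60 ± 0.18 in HM1 and 0.59 ± 0.18 in CAG150 (adjusted p = 0.018 in both). The HM1 call was lost without HM1 day 4 replicate 3 or HM1 day 6 replicate 1 or 3 (-0.41 to -0.58), and the CAG150 call without CAG150 day 4 replicate 2 or CAG150 day 6 replicate 1 or 3 (-0.46 to -0.56). Kcnip1 (chromosome 11) went the other way in HM1, reading 10.8, 8.87 and 14.2 at day 4 and 24.6, 26.3 and 18.2 at day 6, and in CAG150 22.5, 17.9 and 20.5 and then 18.8, 19.6 and 16.4. The HM1 day 4 arrays were below all others. Kcnip1 rose in HM1 (0.52 ± 0.10, adjusted p = 0.0019) and was higher in CAG150 at day 4 (0.41 ± 0.10, adjusted p = 0.017), the latter lost without HM1 day 4 replicate 2 or CAG150 day 4 replicate 1 (0.35 and 0.37). The difference of its day differences, -0.60 ± 0.15 (adjusted p = 0.045), was lost without any 1 of 10 arrays, that is, all but HM1 day 4 replicate 3 and HM1 day 6 replicate 3 (-0.53 to -0.65, adjusted p up to 0.11).

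Kcnmb4, the neuronal beta subunit of the large-conductance channel, rose in CAG150 from 42.7 ± 0.328 to 76.7 ± 7.56 (0.66 ± 0.13, adjusted p = 0.00098). At day 4 it was lower in CAG150 than in HM1, where it read 68.7 ± 15.8 (-0.51 ± 0.13, adjusted p = 0.016), a call lost without HM1 day 4 replicate 1 or 3 (-0.41 and -0.45). Kcnmb4os2, listed as an opposite-strand gene of Kcnmb4 and not itself a channel, read 16.2, 12.7 and 16.2 in HM1 and 12.1, 16.2 and 24.9 in CAG150 at day 4, and 42.7, 41.4 and 47.1 and 32.6, 22.6 and 49.9 at day 6. The days were apart in HM1 and overlapped in CAG150. It rose by 0.95 ± 0.17 in HM1 (1.93-fold, adjusted p = 0.00094) and by 0.58 ± 0.17 in CAG150 (adjusted p = 0.016), the latter lost without CAG150 day 4 replicate 1 or CAG150 day 6 replicate 3 (0.38 and 0.46) and under either other scaling. Kcnab1, a cytoplasmic subunit of voltage-gated channels, rose in CAG150 from 7.56 ± 4.19 to 21.9 ± 7.48 (0.68 ± 0.17, adjusted p = 0.0052). Kcnab2 and Kcnmb2 passed in no comparison.

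Many of these calls concern dim genes (Scn9a, Cacng5, Kcnk6, Kcnk13, Kcnip1, Kcnab1 and Kcnt1 also had at least 1 group below the signal threshold), and their sizes shift with the constant added before the logarithm. Of 83 calls in the 5 comparisons, 66 moved by more than 1.5 times on the log2 scale with a constant of 1 or of 64, and none changed sign in an alternative that tested it. Another probe set with signal of the same gene was available for 36 calls. Of 49 such probe sets, 44 had the sign of the call, 23 of them passing, and 5 had the other sign without passing, in Scn8a, Kcnc1, Kcnk5 and Kcnd1.

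Genes that place channels in the membrane, set the ion gradients or otherwise bear on excitability were measured as well. The list had 42 genes, of which 35 had a named probe set and 24 had signal. It included the repressor gene Rest, which is counted in the numbers that follow and was the 1 that fell in CAG150. Rest is also counted among the falls in HM1 and among the genes lower in CAG150 on both days. In HM1 9 rose and 3 fell between days, with a median difference of 0.16, and in CAG150 14 rose and 1 fell, with a median of 0.37. Ank3, the scaffold of the axon initial segment, rose by 1.34 ± 0.15 in HM1 and 1.16 ± 0.15 in CAG150. Nfasc, an adhesion molecule of the same site, rose by 0.95 ± 0.12 and 1.54 ± 0.12, and Atp1b1, a sodium pump subunit, by 0.85 ± 0.10 and 1.32 ± 0.10. Between the lines 3 were higher and 2 lower in CAG150 at day 4, and 5 higher and 2 lower at day 6. The sodium leak channel Nalcn was higher in CAG150 on both days (0.67 ± 0.10 and 0.53 ± 0.10), and Nrcam, another adhesion molecule of the axon, was lower at day 4 (-0.62 ± 0.07). The difference of the day differences passed for Nrcam (0.63 ± 0.10, adjusted p = 0.0039) and for Fgf13, which binds sodium channels (0.70 ± 0.11, adjusted p = 0.0033). Fgf13 fell by 0.35 in HM1 and rose by 0.35 in CAG150. Rest read 371 ± 25.2 in HM1 and 232 ± 11.6 in CAG150 at day 4, and 247 ± 21.2 and 193 ± 8.76 at day 6. It fell in HM1 (-0.56 ± 0.09, adjusted p = 0.00033) and in CAG150 (-0.24 ± 0.09, adjusted p = 0.04). Its level in CAG150 was below that in HM1 by -0.64 ± 0.09 at day 4 (adjusted p = 0.00035) and -0.33 ± 0.09 at day 6 (adjusted p = 0.019).

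The other 57 members were not tested, and their values say only that the probe sets used were at or below the level of the dimmest 40% of the array. Of them, 9 were above the signal threshold in 1 group each. Kcnd2, of A-type current, was at 23.2 in CAG150 at day 6 and between 3.94 and 5.06 in the other groups. Kcnc2 was at 14.2 there and at most 5.87 elsewhere, and Kcna6 was at 20.8 in HM1 at day 6 and between 7.71 and 11.5 elsewhere. The others were Kcnf1, Kcnj10, Kcnj14, Kcnq5, Cacnb4 and Kcnip4. Kcnq1, Kcnq3 and Kcnq5, of the family that includes the M-current channels, had means over the arrays of 4.83, 7.84 and 9.94.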

How the data were processed

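The deposited table holds intensities of 45101 probe sets on 12 arrays, on a linear scale, which the authors had scaled so that the mean of each array, leaving out the top and bottom 2% of values, was the same. This was read from the values, and the software was not given in these sources. Depth does not apply to arrays, and precision rests on 3 arrays per group.

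Of these probe sets, 34945 had 1 gene symbol in the platform annotation, 932 had several, 9160 had none and 64 were controls. No member's symbol was changed by the gene table of GRCm38.p6, which also gave chromosomes. Intensities were put on the scale of log2(intensity + 16), which understates the change of dim genes, and no detection call was used. Each gene was represented by its brightest probe set (by the mean over the 12 arrays), if that lay above the 40th percentile of the array. A model with 4 group means was fitted to all 12280 genes with limma 3.58.1 in R 4.3.3 (lmFit, eBayes, 8 residual and 4.46 prior degrees of freedom), with Benjamini-Hochberg adjustment over all of them in each of 5 comparisons, and was tested on simulated data. Values on every array are given for members that passed with at least 1.5-fold and without overlap of the groups, at most the 8 largest per comparison, and for some others. The members and the lists of markers and partners were chosen with earlier results of these data known. Alternatives were other scalings, filters, added constants and summaries of probe sets, eBayes with trend and robust settings, leaving out chromosomes 8, 11 and Y, a block for the replicate number and leaving out each array.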

Additional observations from a re-analysis of the deposited data

Results flagged for a closer look

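For 4 channel genes the difference between day 6 and day 4 was not the same in the lines, by the test of the difference itself in limma with adjustment over all genes. It was larger in CAG150 for Cacna2d1 (difference of the log2 differences 2.39, adjusted p = 1.7e-05) and for Scn3b (0.80, adjusted p = 0.001), which rose in both lines. It was smaller in CAG150 for Cacna2d3 (-0.55, adjusted p = 0.031), which rose in both lines, and for Kcnip1 (-0.60, adjusted p = 0.045), which rose in HM1 alone. The values of Cacna2d3 and Kcnip1 lost the threshold when single arrays were left out, as given with each gene above. The groups held 3 arrays each, so no test for a single outlying array was made.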

How the results depend on the processing

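Across the alternatives, no call of a channel gene changed sign. The number of channel genes with signal, 61, became 13 with the filter at the 60th percentile and 40 when a signal was asked for in every group, and stayed within 1.5 times with probe sets averaged per gene (43) or a signal in any group (70). With the 60th percentile filter the numbers that passed were 5 and 7 between the lines at days 4 and 6, and 6 and 10 between days in HM1 and CAG150, since only 13 members were tested. With each gene's probe sets averaged, 5 passed between the lines at day 4. The difference of the day differences passed for 2 members without a filter and for 2 with the replicate number as a block. That block gave 8 and 9 members between the lines at days 4 and 6 and 23 and 35 between days in HM1 and CAG150. The numbers do not pair the arrays: of 18 correlations between same-numbered arrays, from -0.133 to 0.122, 2 were over 0.1. Leaving out each array in turn gave 6 to 11 (day 4) and 9 to 13 (day 6) between the lines, 19 to 26 in HM1 and 28 to 33 in CAG150 between days, and 2 to 5 for the difference of the day differences. Of the calls that could be tested, 8 of 81 were lost with quantile normalization, 9 of 83 with median centring, 12 of 83 without a filter, 6 of 80 with a constant of 1, 10 of 82 with 64, 13 of 67 with the mean of probe sets, 12 of 83 with trend and robust settings, 0 of 69 without chromosomes 8, 11 and Y, and 14 of 83 with the block. Without the 3 HM1 day 6 arrays, a setting chosen after seeing the data, 10 members passed between the lines at day 4 and 30 between days in CAG150, and 0 of 39 calls were lost. For the other shifts the cause was not tested.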
